A study of Mus musculus with 4 samples.

Results

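The heat shock proteins and DnaJ co-chaperones measured here are 69 genes, out of 23960 named genes on the array. They were chosen by name: a probe belonged if it was no control and its gene was named as a small heat shock protein (Hspb), a protein of the Hsp70 (Hspa), Hsp110 (Hsph) or Hsp90 family, or a chaperonin subunit (Hspd, Hspe), or as a DnaJ protein of class A, B or C. This gave 105 of 55681 probes, printed as 123 spots per array. By family there were 8 small heat shock proteins, 43 DnaJ co-chaperones (the Hsp40 family), 13 members of the Hsp70 and Hsp110 families, 3 of the Hsp90 family, and the mitochondrial chaperonin pair Hspd1 and Hspe1. The inducible Hsp70 gene Hspa1a had a probe of its own, and its near-identical copy Hspa1b is not named on the array. Transcripts of that copy can bind the Hspa1a probe, which was not tested, so its value is uncertain.

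RNA labelled as primary odontoblast (Cy5), from dental pulp, was hybridised against RNA labelled as calvarial osteoblast (Cy3), from the skull vault, on 4 two-colour Agilent mouse arrays. Both cell populations were prepared from 2-week-old mice that carried EGFP, a green fluorescent protein, driven by 2.3 kb of the type I collagen promoter, and the tissues were digested with enzymes and sorted for green cells. The promoter is active in both cell types, and the 2 RNAs of an array came from matched donors. The labels give the strain C57BL/6 for the Cy5 channel, and no number of animals per array, so p-values cover only the spread among 4 arrays, which may be technical. Values are log2 ratios of Cy5 over Cy3: above 0 the Cy5 channel (labelled odontoblast) was brighter, and below 0 the Cy3 channel (labelled osteoblast). No array had its dyes swapped, so dye and cell label cannot be told apart.

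Heat shock proteins are chaperones, proteins that keep other proteins from clumping or help them fold. Proteins of the Hsp70 family bind and release unfolded stretches by splitting ATP, DnaJ proteins deliver clients to them and start that cycle, and Hsp110 proteins reset it by exchanging the nucleotide. The Hsp90 family finishes the folding of kinases and receptors, and small heat shock proteins hold unfolded proteins without ATP. In the cytosol many of these genes are switched on by the heat shock factor Hsf1, while those of the endoplasmic reticulum, through which collagen and other matrix proteins pass on their way out of bone and tooth cells, are switched on by the unfolded protein response.

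The 250 bases before the transcription start of 4 members are shown because they hold the letters of those 2 switches (RefSeq, GRCm38.p6). In Hspb1 (chr5:135887669-135887918, plus strand), the 1 member that passed the test, capitals mark 2 copies of GAANNTTC, a pair of inverted heat shock factor units, starting 117 and 97 bases before the start. The window of Hspa1a (chr17:34972157-34972406, minus strand) has 1 copy, 104 bases before the start. Hspa5 (chr2:34771840-34772089, plus strand) and Hsp90b1 (chr10:86705445-86705694, minus strand) are chaperones of the endoplasmic reticulum, and their capitals mark the endoplasmic reticulum stress element, CCAAT and CCACG with 9 bases of any kind between them, on either strand. It lies 65 bases before the start in Hspa5, and in Hsp90b1 a copy 212 bases before the start is followed by one on the other strand. The sequences of 2 array probes of 60 bases follow.
Hspb1 promoter: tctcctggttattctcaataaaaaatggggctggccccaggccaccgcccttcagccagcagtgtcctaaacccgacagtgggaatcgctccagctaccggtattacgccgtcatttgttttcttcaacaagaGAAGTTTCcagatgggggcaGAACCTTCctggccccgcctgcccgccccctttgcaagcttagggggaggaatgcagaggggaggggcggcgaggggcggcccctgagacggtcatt
Hspa1a promoter: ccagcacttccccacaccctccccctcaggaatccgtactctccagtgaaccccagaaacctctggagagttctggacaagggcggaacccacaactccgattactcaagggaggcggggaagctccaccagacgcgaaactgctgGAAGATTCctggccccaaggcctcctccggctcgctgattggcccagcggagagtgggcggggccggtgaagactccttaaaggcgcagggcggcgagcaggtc
Hspa5 promoter: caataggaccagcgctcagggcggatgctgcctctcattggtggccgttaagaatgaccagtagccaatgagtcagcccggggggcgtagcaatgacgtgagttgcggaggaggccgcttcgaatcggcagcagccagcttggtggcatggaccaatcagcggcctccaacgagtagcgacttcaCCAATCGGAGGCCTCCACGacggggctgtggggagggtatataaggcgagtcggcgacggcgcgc
Hsp90b1 promoter: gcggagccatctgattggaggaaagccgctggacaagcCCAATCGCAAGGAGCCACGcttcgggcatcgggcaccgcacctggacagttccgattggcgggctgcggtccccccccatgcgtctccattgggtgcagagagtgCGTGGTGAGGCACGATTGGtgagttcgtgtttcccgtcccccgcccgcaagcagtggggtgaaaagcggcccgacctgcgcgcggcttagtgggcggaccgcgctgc
Hspa1a probe: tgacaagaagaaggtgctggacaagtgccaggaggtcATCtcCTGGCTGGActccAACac
Hspa8 probe: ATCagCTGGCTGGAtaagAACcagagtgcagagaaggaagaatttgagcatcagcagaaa
The probes are those of the inducible Hspa1a (chr17:35107117-35107176, mm9, minus strand) and of the constitutive Hspa8 (chr9:40612755-40613050, mm9, plus strand), shown because both genes encode cytosolic proteins of the Hsp70 family. Their capitals mark letters that match where the probes overlap best without gaps, 15 of 23 bases. The Hspa8 probe covers 296 bases of the chromosome with 60 bases, so its ends lie further apart than its own length.

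Marker genes ran against the dye labels. Of 6 odontoblast markers 4 had their mean signal higher in Cy3 and 1 of them was called there (Wnt10a). All 10 markers of osteoblasts and bone matrix had means above 0, toward Cy5, 4 of them called. Sp7 (mean 0.02) and Alpl (0.05) were near equal signal, and they and Bglap (1.34) had arrays on both sides of 0. The channels are therefore named by dye and label. Exchanged labels would leave each sign as it is and reverse the cell type it stands for. Cell types outside the sort also left signal. Of 7 tested markers of dental epithelium 6 had means below 0, toward Cy3 (2 called, Cdh1 not tested). Epcam (-0.03), Krt14 (-0.10) and Krt5 (-0.14) among them had means near equal signal, and the called ones were Odam and Ambn. All 7 cartilage markers were higher in Cy5, 3 of them called. Of 10 macrophage markers 7 were higher in Cy5 (2 called). The other 3 were higher in Cy3 (Csf1r, Aif1 and Cd68, 0 called). Of 8 smooth muscle and pericyte markers 4 were higher in Cy5 and 4 in Cy3, with 1 called in Cy3 (Cnn1). In such bulk RNA, fewer cells of a type and less RNA per cell cannot be told apart. The median spot signal was 7.10 to 8.21 times background in Cy5 and at least 10.9 times in Cy3, and array 3 had the lowest share of spots well above background, 68.2% in Cy3. Ratios over all genes correlated between pairs of arrays at r = 0.323 to 0.534. The pairs with array 3 were the lowest, at 0.323, 0.340 and 0.379.

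A single member, Hspb1 (also called Hsp25 in the mouse), changed past the threshold, and it was 7.95-fold higher in the Cy3 channel. Filtering left 67 of the 69 members to test, without Hspa12a and Dnajb7, which were well above background in a channel on at most 2 arrays. limma called 1 of these 67 at an adjusted p under 0.05, against 2.15% of all 19619 genes tested, and 0 members toward Cy5 (1.28% of all genes) with 7 there at an unadjusted p under 0.05 (11.2% of all genes). Including Hspb1, 15 of 67 members had an unadjusted p under 0.05, against 21.2% of all genes. By both counts the members lay near the background.

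The members as a whole were centred on equal signal. Their median ratio was 0.06, against 0.01 over all genes, and the array medians of the members were -0.13, -0.06, 0.15 and -0.11. On all 4 arrays 21 members had 1 sign, against 31.4% of all genes: 8 were positive, against 3143 of 19619 genes, and 13 were negative, against 3019 genes. The other 46 had both signs. The median SD between arrays was 0.61 for the members and 0.54 for all genes. For 28 of 67 members (41.8%) the 95% confidence interval lay within a 2-fold change in either direction, against 47.3% of all genes, and for the remaining members these 4 arrays did not exclude a 2-fold change. Median centring of each array in place of the loess fit put the median of all genes at 0.20 and that of the members at 0.40, and it made 50 members positive and 17 negative in place of 35 and 32. The 15 members that turned were Dnaja1, Dnajb6, Dnajc5, Dnajc7, Dnajc8, Dnajc19, Dnajc24, Hspa1l, Hspa4, Hspa8, Hspa9, Hspb6, Hspb8, Hspd1 and Hsp90ab1, so their signs, and the intervals given below, are those of the loess fit.

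**Figure D1:**
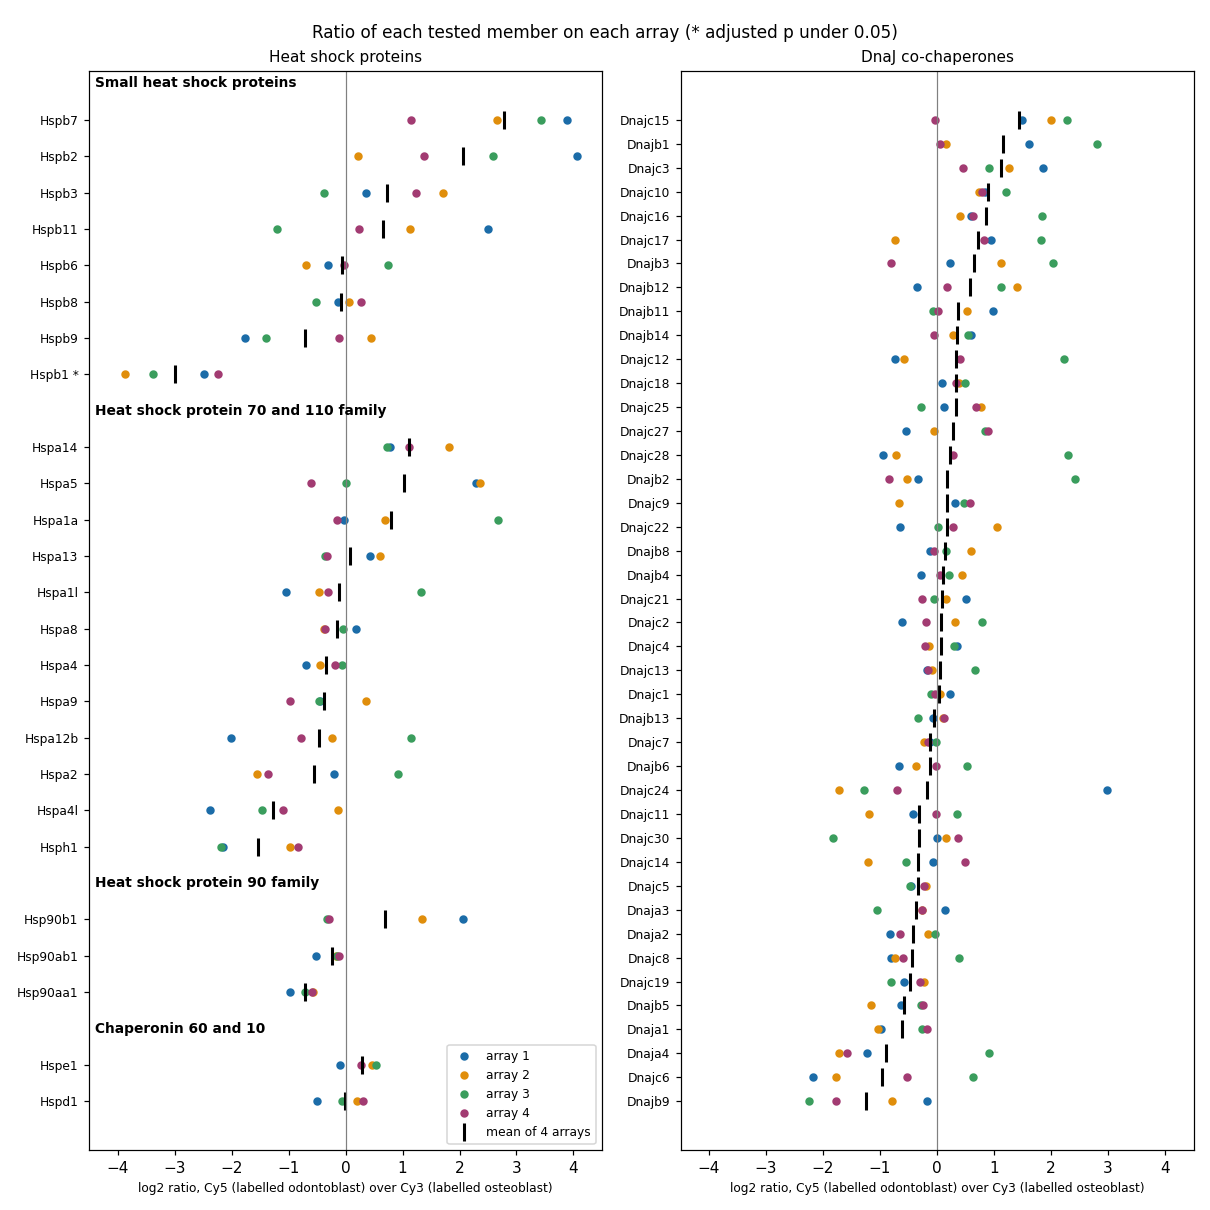
The log2 ratio of Cy5 (labelled odontoblast) over Cy3 (labelled osteoblast) is plotted for each of the 67 tested members on each of 4 arrays, with a bar at the mean, heat shock proteins on the left and DnaJ co-chaperones on the right. Hspb1 is the 1 member with an adjusted p under 0.05, and 46 members have arrays on both sides of 0; the signs of 15 members turn with median centring.

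Among the small heat shock proteins, the ratios ran from -2.99 for Hspb1 to 2.79 for Hspb7, a member known from heart and skeletal muscle. Hspb1 binds unfolded proteins and actin filaments and is among the genes that heat induces. Its probe lies on chromosome 5, 136365366 to 136365425 (mm9). The normalised log2 signal of Hspb1 was 9.47, 8.64, 9.02 and 9.34 in Cy5 and 11.96, 12.51, 12.39 and 11.58 in Cy3 on arrays 1 to 4. Every Cy5 value lay below every Cy3 value. The ratios were -2.49, -3.86, -3.38 and -2.24, with a mean of -2.99 ± 0.76 (SD, n = 4) and a 95% confidence interval of -3.80 to -2.18 (limma adjusted p = 0.0239). The call was kept under 8 other ways of processing the 4 arrays and was lost when any 1 array was left out, with an adjusted p of 0.0997, 0.0843, 0.0662 and 0.0890 without arrays 1, 2, 3 and 4 and ratios between -3.24 and -2.70. The dental epithelium markers Odam (mean -5.00), Ambn (-3.05) and Enam (-1.58) were higher in Cy3. Those with means near equal signal were Epcam (-0.03), Krt14 (-0.10) and Krt5 (-0.14), and Amelx had a mean of 0.26. The summed level of all tested dental epithelium markers was 1898 to 2710 in Cy5 and 4841 to 11081 in Cy3. That of the smooth muscle and pericyte markers was 23117 to 40305 in Cy5 and 27808 to 53971 in Cy3. The part of these cells in the Hspb1 ratio was not tested.

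Hspb7 ran the other way. Its ratios of 3.89, 2.67, 3.44 and 1.15 were positive on all arrays, and array 4 was the lowest. The mean of 2.79 ± 1.20 (SD, n = 4; 95% confidence interval 1.60 to 3.97) corresponded to 6.90-fold more signal in Cy5 and missed the threshold (limma adjusted p = 0.0655). It passed with median centring (adjusted p = 0.0261) and with scale normalization between arrays (adjusted p = 0.0430). Its probe, on chromosome 4 at 140980355 to 140980414 (mm9), was printed 10 times on each array. The SD between the repeated spots of an array was 0.0497 to 0.0992, against an SD of 1.20 between arrays, so nearly all of the spread lay between arrays and not between spots.

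**Figure D2:**
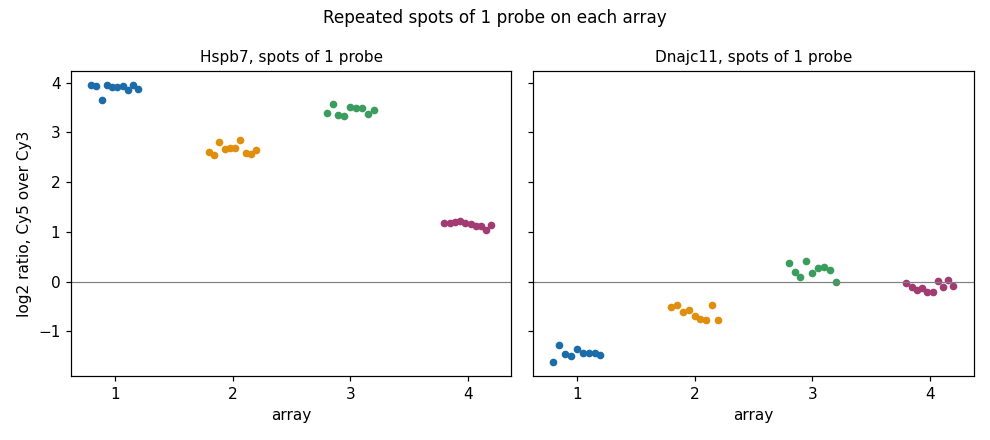
Each point is 1 spot: the log2 ratio of Cy5 over Cy3 of the repeated spots of 1 Hspb7 probe and of 1 Dnajc11 probe, by array. The spots of an array lie close together, with an SD of at most 0.131, while the arrays stand apart, with SDs between arrays of 1.20 for Hspb7 and 0.727 for Dnajc11.

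Hspb2, which is also known from heart and skeletal muscle, had ratios of 4.06, 0.22, 2.59 and 1.39. All were positive, but the Cy3 signal was well above background on 1 array only (mean 2.06, limma adjusted p = 0.184). Hspb3, another small heat shock protein of muscle, had arrays on both sides of 0 (mean 0.73). The crystallin Cryab, a small heat shock protein under another name, had ratios of 2.31, 0.12, 3.40 and 0.54, largest on arrays 1 and 3 as for Hspb2 (mean 1.59, adjusted p = 0.239). Of the 6 tested skeletal muscle markers 2 were higher in Cy5 and 4 in Cy3, none called, with a summed level of 6057 to 11471 in Cy5 and 8480 to 16688 in Cy3, and the probes of the muscle myosins Myh1 and Myh3 were well above background on at most 1 array and were not tested. Their part in these ratios was not tested.

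Other small heat shock proteins stayed near equal signal or varied between arrays. Hspb8, which works with the co-chaperone Bag3 in clearing damaged filaments, had ratios of -0.12, 0.06, -0.51 and 0.27 and a 95% confidence interval of -0.57 to 0.42. Hspb6, known from smooth muscle, had a mean of -0.07, with array 3 alone positive. Hspb9, a testis protein, had a mean of -0.70, with arrays on both sides. Hspb11, in fact a part of the transport machinery of cilia, had ratios of 2.50, 1.13, -1.20 and 0.23, while its other probe had a mean of -0.15. The family median was 0.30, and it turned to -0.069 without Hspb2, when each array needed both channels above background.

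In the Hsp70 and Hsp110 families the 2 members with the lowest ratios were Hsph1 and Hspa4l, both of the Hsp110 branch that exchanges nucleotides. Hsph1, which heat induces, had a normalised log2 signal of 13.22, 13.81, 13.74 and 13.85 in Cy5 and 15.36, 14.78, 15.93 and 14.69 in Cy3. Its ratios of -2.15, -0.97, -2.19 and -0.84 were all negative, lower on arrays 1 and 3 than on arrays 2 and 4. The mean of -1.54 ± 0.73 (SD, n = 4; 95% confidence interval -2.32 to -0.75) missed the threshold (limma adjusted p = 0.0954), and with median centring it was -0.85. A second Hsph1 probe gave -1.96, -1.20, -2.31 and -0.53, a mean of -1.50. Hspa4l had ratios of -2.39, -0.14, -1.46 and -1.10 (mean -1.27, adjusted p = 0.178). The constitutive Hspa4, of the same branch, was also negative on all arrays, at a mean of -0.35, but positive on average with median centring. Another of its 3 kept probes was positive on arrays 2 and 4, at 0.02 and 0.61 (mean -0.32), and the remaining one was negative on all arrays.

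The cytosolic proteins of the Hsp70 family that bind clients did not lean one way. Hspa8, the constitutive member, had ratios of 0.18, -0.38, -0.04 and -0.36, with a 95% confidence interval of -0.61 to 0.31. This was within a 2-fold change under the loess fit alone: with median centring the mean turned to 0.91. Its 3 probes had means from -0.18 to 0.10. Hspa1a, the main member that heat induces, had ratios of -0.03, 0.69, 2.67 and -0.16. Array 3 was far above the others, and the mean of 0.79 had an interval of -0.49 to 2.07 (limma adjusted p = 0.447). Hspa14, a partner of the ribosome, was the 1 member of these families with positive ratios on all arrays, at 0.78, 1.81, 0.72 and 1.12. Its mean of 1.11 ± 0.50 (SD, n = 4) was not called (limma adjusted p = 0.110), though it was with median centring (adjusted p = 0.0406). Hspa2 and Hspa1l, which are known from testis, and Hspa12b, known from endothelium, each had 1 positive array, array 3, and means between -0.55 and -0.12. A second Hspa12b probe had a mean of 0.33. The family median was -0.25 and turned to 0.23 with median centring.

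Hspa9, the mitochondrial member, had ratios of -0.45, 0.36, -0.47 and -0.97 (mean -0.38), and the mean turned to 0.43 with median centring. The chaperonin subunits that fold proteins beside it in the mitochondrial matrix had intervals within a 2-fold change, with means of -0.02 for Hspd1 and 0.29 for Hspe1.

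Both cytosolic proteins of the Hsp90 family were lower in Cy5 on all 4 arrays, although neither passed the test. Hsp90aa1, the form that heat induces, had a normalised log2 signal of 12.45, 12.54, 12.74 and 12.52 in Cy5 and 13.42, 13.10, 13.44 and 13.12 in Cy3. The channels did not overlap, and the ratios of -0.97, -0.56, -0.70 and -0.60 were close to each other. The mean of -0.71 ± 0.19 (SD, n = 4; 95% confidence interval -1.14 to -0.28) corresponded to 1.64-fold more signal in Cy3 (limma adjusted p = 0.128). Hsp90ab1, the constitutive form, had ratios of -0.51, -0.16, -0.15 and -0.12 (mean -0.24, adjusted p = 0.493), which turned positive on average with median centring. Hsp90b1, the form of the endoplasmic reticulum, split by array, with ratios of 2.06, 1.34, -0.33 and -0.29 (mean 0.70, adjusted p = 0.467; mean 1.51 with median centring). The family median of -0.24 turned to 0.26 with median centring.

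**Figure D3:**
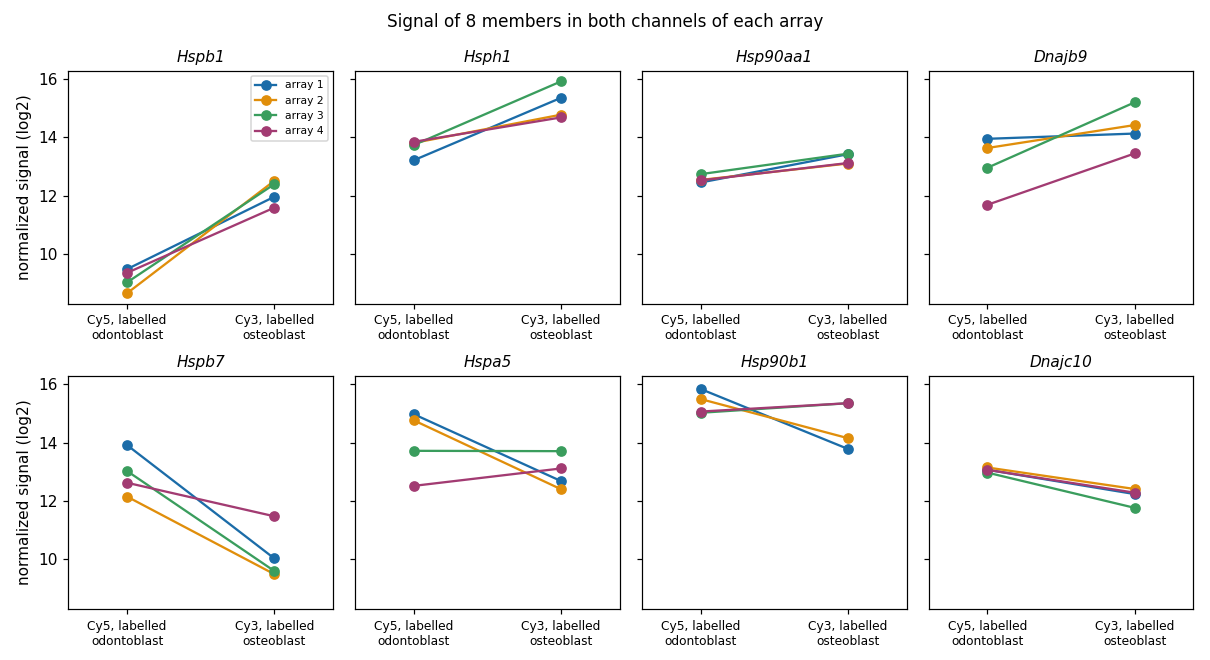
The normalised log2 signal in Cy5 (labelled odontoblast, left) and Cy3 (labelled osteoblast, right) is drawn for 8 members, with 1 line per array. For Hspb1, Hsph1, Hsp90aa1 and Dnajb9 every line runs up toward Cy3, for Hspb7 and Dnajc10 every line runs down, and for Hspa5 and Hsp90b1 the arrays part, with arrays 1 and 2 higher in Cy5.

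The DnaJ co-chaperones had a median of 0.08 over 42 tested members and array medians of -0.12, -0.12, 0.37 and -0.04, and limma called 0 of them, with 4 in each direction at an unadjusted p under 0.05, against 2189 of all 19619 genes toward Cy5 (11.2%) and 1971 toward Cy3. With median centring their median was 0.45. Class A and B members of the cytosol, the general partners of Hspa8 and Hspa1a, went both ways. Dnajb1, the partner that heat induces, had ratios of 1.62, 0.16, 2.80 and 0.05. Arrays 1 and 3 were high and the other two near 0 (mean 1.16 ± 1.31 SD, limma adjusted p = 0.298). Dnaja1 was negative on all arrays, at -0.99, -1.04, -0.26 and -0.18 (mean -0.61, adjusted p = 0.244), and turned to 0.13 with median centring. A second Dnaja1 probe had a ratio of 0.37 on array 2, negative ratios on the other arrays and a mean of -0.42. Dnaja2, the constitutive relative of Dnaja1, was also negative on all arrays (mean -0.42), but its second probe had both signs and a mean of 0.10. Dnajb4 had a mean of 0.11 with an interval of -0.38 to 0.59. Dnaja4 had array 3 positive and the other three between -1.72 and -1.22 (mean -0.90), but its second probe was negative on all arrays, at -1.58, -2.32, -1.73 and -0.99. Dnajb5 was negative on all arrays (mean -0.58), but its second probe was positive on array 3, at 0.65 (mean -0.47).

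Among DnaJ members of mitochondria, Dnajc15, which sits in the inner membrane, had ratios of 1.49, 2.00, 2.28 and -0.04. Array 4 stood apart from the rest (mean 1.43, limma adjusted p = 0.170). Its relative Dnajc19, a part of the motor that imports proteins, was negative on all arrays (mean -0.48) and positive on average with median centring. Dnaja3, Dnajc11 and Dnajc30 had arrays on both sides of 0 and means between -0.36 and -0.32.

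The remaining class C members hold a J domain beside unrelated functions, and most lay near 0. Dnajc7, which binds both Hsp70 and Hsp90, was the most even member, with ratios of -0.12, -0.22, -0.02 and -0.15 (SD 0.08). Dnajc5, the cysteine string protein of secretory vesicles, was negative on all arrays (mean -0.34) and turned to 0.47 with median centring. Another of its 4 kept probes was positive on all arrays, at 0.21, 0.44, 0.64 and 0.58. Dnajc6, the clathrin uncoating factor auxilin of neurons, ran from -2.17 on array 1 to 0.63 on array 3 (mean -0.96). Dnajc16 was positive on all arrays, at 0.60, 0.40, 1.84 and 0.64 (mean 0.87, limma adjusted p = 0.207). The splicing factor Dnajc8 had a mean of -0.44 with array 3 positive (0.24 with median centring), and Dnajc17, also of the spliceosome, had a mean of 0.71 with array 2 negative. Dnajc2 and Dnajc21, which act at the ribosome, had means of 0.07 and 0.09 and intervals within a 2-fold change. The endosomal Dnajc13, the histone chaperone Dnajc9, the endoplasmic reticulum membrane proteins Dnajb12, Dnajb14 and Dnajc18, and Dnajb8 and Dnajc4 had means between 0.06 and 0.59, and of these 7 Dnajc18 alone was positive on all arrays. Of the 67 tested members 11 were not well above background in both channels on every array: Hspb2, Hspa1l, Dnajc6, Dnajc14 and Dnajc17, and 6 more (Dnajb3, Dnajb13, Dnajc12, Dnajc22, Dnajc27 and Dnajc28) with means between -0.05 and 0.65.

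Of the 8 members grouped here for the endoplasmic reticulum, all but Dnajc10 were higher on arrays 1 and 2 than on arrays 3 and 4. Of the 8, 3 kept 1 sign on all arrays, and Dnajc1 stayed near 0. These 8 members and the compartment groups below were put together after their values were seen, from what is known of each protein, and their medians are descriptions. Hspa5 (BiP), the central chaperone of the compartment, had a normalised log2 signal of 14.98, 14.76, 13.72 and 12.51 in Cy5 and 12.68, 12.40, 13.71 and 13.11 in Cy3. Its ratios were 2.30, 2.37, 0.01 and -0.60, so Cy5 was higher on arrays 1 and 2, equal on array 3 and lower on array 4. The mean of 1.02 ± 1.54 (SD, n = 4) had an interval of -0.46 to 2.50 (limma adjusted p = 0.407). Hsp90b1 was likewise positive on arrays 1 and 2 alone, as given above. Dnajb11, a partner of Hspa5 in folding, had ratios of 0.98, 0.52, -0.07 and 0.02, also higher on arrays 1 and 2 (mean 0.36, and 1.09 with median centring). Hspa13 was positive on arrays 1 and 2 and negative on arrays 3 and 4 (mean 0.09), but its second probe was negative on all 4 (mean -0.47). Dnajc1 had a mean of 0.04. The group's median ratio was 0.91, 0.67, -0.09 and -0.16 on arrays 1 to 4.

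The 3 members of this group with 1 sign on all arrays were DnaJ proteins. Dnajc3, an inhibitor of the stress kinase Eif2ak3 and a partner of Hspa5, was positive on all arrays, at 1.86, 1.26, 0.91 and 0.45. Its mean of 1.12 ± 0.59 (SD, n = 4) was not called (limma adjusted p = 0.129), but was with median centring (adjusted p = 0.0389). Dnajc10, which breaks wrong disulfide bonds, had ratios of 0.83, 0.74, 1.21 and 0.78, close to each other and all positive. Its mean of 0.89 ± 0.22 (SD, n = 4; 95% confidence interval 0.45 to 1.33) missed the threshold (limma adjusted p = 0.0883) and passed with median centring (adjusted p = 0.0249), while its second probe had a mean of 0.29. Dnajb9, which hands misfolded proteins to degradation, was negative on all arrays, at -0.18, -0.79, -2.25 and -1.76. Arrays 3 and 4 were lowest (mean -1.25 ± 0.93 SD, limma adjusted p = 0.184), and a second Dnajb9 probe ranged from -2.20 on array 3 to 0.16 on array 1.

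**Figure D4:**
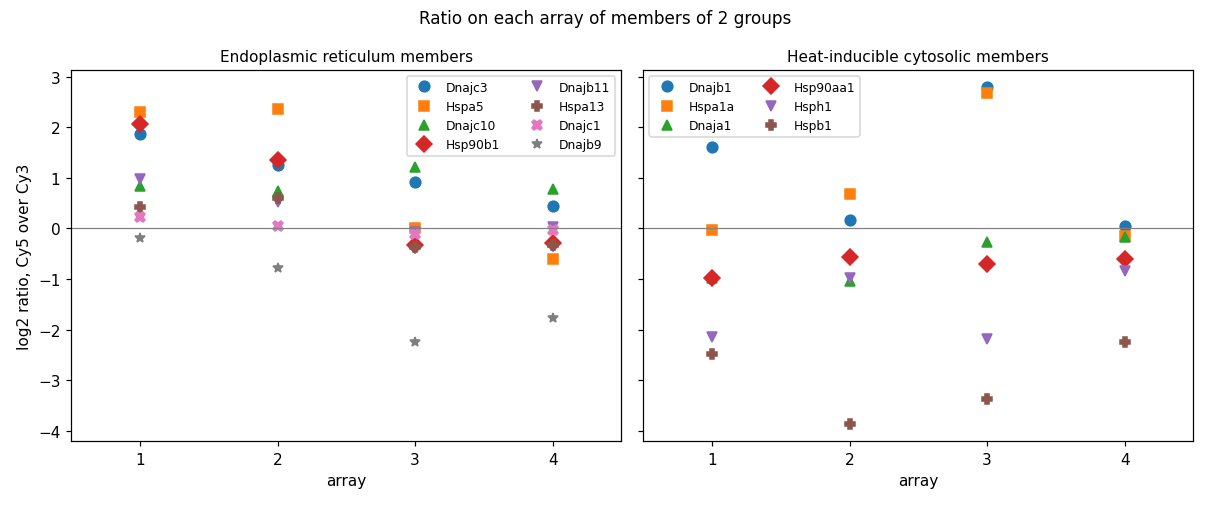
The log2 ratio of Cy5 (labelled odontoblast) over Cy3 (labelled osteoblast) is plotted by array for 8 members of the endoplasmic reticulum (left) and for 6 cytosolic members that heat induces (right). In the endoplasmic reticulum Hspa5 and Hsp90b1 lie above 1 on arrays 1 and 2 and at or below 0.01 on arrays 3 and 4, and in the cytosol Hspb1, Hsph1 and Hsp90aa1 lie below 0 on every array while Hspa1a and Dnajb1 reach above 2 on array 3.

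Cytosolic members that heat induces did not move as 1 group. Of the 6 (Hspa1a, Dnajb1, Hsph1, Hspb1, Hsp90aa1 and Dnaja1), 4 were negative on all arrays, 1 was positive on all arrays and 1 had both signs, with a median of -0.66. These counts are of the brightest probe of each gene, and the second probe of Dnaja1 was positive on array 2. Hspa1a and its partner Dnajb1 had their highest ratio on array 3, where Hsph1 had its lowest. The normalised log2 Cy3 signal of Hspa1a was 7.95 on array 3 and 10.05 to 10.65 on the others, with Cy5 at 10.45 to 10.74. For Dnajb1 the Cy3 signal was 8.59 on array 3 and 10.22 to 11.29 on the others, with Cy5 at 11.24 to 11.83. The 5 constitutive cytosolic members Hspa8, Hsp90ab1, Hspa4, Dnaja2 and Dnajc7 all had 95% confidence intervals within a 2-fold change under the loess fit, with a median of -0.24 that turned positive with median centring.

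Genes that work with the members were read from 4 lists. Of 45 tested co-chaperones and stress factors of the heat shock system limma called 0. At an unadjusted p under 0.05 were 4 toward Cy5 and 3 toward Cy3, against 2189 and 1971 of all 19619 genes. The list's median was 0.00. Its largest ratios after Cryab were those of Sdf2l1, a partner of Hspa5 (3.15, 2.77, -1.61 and 1.15, mean 1.36), and of the heat shock factor Hsf2 (-0.68, -0.96, -3.36 and -0.19, mean -1.30). Array 3 was the lowest for both. In the cytosolic chaperonin and prefoldin list, whose 14 genes fold actin and tubulin, limma called 0 (2 toward Cy3 at an unadjusted p under 0.05, against 1971 of 19619 genes), 5 genes were negative on all arrays, against 15.4% of all genes, and the median of -0.24 turned to 0.53 with median centring. Vbp1 (mean -0.58), Tcp1 (-0.55) and Pfdn4 (-0.42) had its largest ratios.

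For the unfolded protein response limma called 0 of 21 genes. At an unadjusted p under 0.05 were 4 toward Cy5, against 11.2% of all genes, and 0 toward Cy3. The share toward Cy5 was larger than over all genes, a difference that was not tested. The list's median ratio was 1.06, 0.41, 0.01 and -0.17 on arrays 1 to 4, beside 0.91, 0.67, -0.09 and -0.16 for the endoplasmic reticulum group above. Derl3, of the degradation machinery, had its highest ratio on array 1 (3.07, 1.59, 0.01 and -0.03, mean 1.16), and so did the disulfide isomerase Pdia3 (mean 0.90). Ddit3, which drives cell death under stress, had a mean of -1.01. Immediate early genes answer stress and cell handling within minutes. Over 23 of them the median was 0.12, 0.64, 0.86 and -0.97 on the 4 arrays, and limma called 0. At an unadjusted p under 0.05 were 5 toward Cy5 and 6 toward Cy3, against 2189 and 1971 of all 19619 genes. Both shares were larger than over all genes, a difference that was not tested. Fosl1 (mean -2.37), Btg2 (1.87) and Socs3 (1.80) had the largest ratios of this list. The part of these genes' array differences in the members' ratios was not tested.

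Probes of 1 gene mostly had means within 1 of each other, but did not always share a sign. Of 24 members with over 1 kept probe, 2 had probes whose means differed by over 1, and 10 had probes of opposite sign. The median range between probes was 0.29, beside a median absolute ratio of 0.36 over the tested members. For Dnajc25 the means were 0.32 and -1.54, and for Dnajb14 they were 0.35 and -0.66. The 4 probes of Dnajb6 fell into 2 transcript forms: those on one RefSeq transcript had means of -0.13 and -0.42, and those on the other, which overlap each other, had means of -1.05 and -0.90. For Dnajb2 the ratio of 2.43 on array 3 stood against 0.16 for its other probe on the same array. For Dnajc24, by contrast, 2 overlapping probes both had a high ratio on array 1 (2.98 and 3.28) and negative ratios on the other three.

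The letters shown in the promoters were counted in RefSeq windows of 250 bases before to 50 after the start, on both strands. Of the 69 members, 56 had a window. GAANNTTC was in a window of 12 members (21.4%), against 9.04% of all genes, and the other 2-unit form, TTCNNGAA, which can overlap it, in 6, against 9.60%. A run of 3 units (GAA, TTC and GAA, or TTC, GAA and TTC, parted by NN) was in 4, namely Dnajb6, Hspd1, Hspe1 and Hsph1, which is 7.14% against 0.662%. The endoplasmic reticulum stress element was in 3 (5.36%, against 0.137%), which were Hspa5, Hsp90b1 and Dnajc3. The ratios of those 3 had positive means, 1.02, 0.70 and 1.12, though none was called. The 12 tested members with GAANNTTC had ratios from -2.99 to 0.79 and a median of -0.07, against a median of 0.10 over 42 without it. A match is a description of letters and not of a bound site.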

How the data were processed

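The deposited scanner files of 4 arrays came, per the file headers, from Agilent Feature Extraction 10.7.3.1, and give, for each of 62976 spots, the mean and background intensity of both channels, unnormalized. The deposited processed log10 ratio and the authors' value table, log10 values of which 99.5% lay within 0.001 (log2) of that ratio, served as an alternative and a check. The software's deposited flags (score values of 0 or 1) mark spots well above background, saturated (0 spots) or outlying (949 spot values, set to missing). All arrays lay on 1 slide with 1 scan, which leaves no batch to test.

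From the intensities, background was corrected with normexp (offset 50) and each array normalised by loess, using limma 3.58.1 (R 4.3.3), with 3671 control spots at weight 0. Spots of a probe were averaged. Probes well above background in 1 channel on at least 3 arrays were kept (44239 of 55681), and the brightest kept probe stood for its gene. The mean log2 ratio was tested against 0 with lmFit and eBayes (two-sided; Benjamini-Hochberg over 37369 features, 19619 of them genes) and called at an adjusted p under 0.05. Channel levels were taken after Aquantile scaling. Names came from RefSeq accessions or, failing those, from the files, and probe coordinates are mm9. The fit was tested on simulated data. The members, lists, markers and the rule for named genes (called members, the largest ratios and brightest probes of each family, and anchors) were chosen with earlier results of these data known. No protein sequences were used here.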

Additional observations from a re-analysis of the deposited data

Results flagged for a closer look

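In 5 of the 67 tested members, 1 array lay further from the other three than Dixon's criterion for 4 values allows at the 95% level. Chance flags about 1 in 20 such groups, which is of the same order as 5 of 67. Array 3 was the distant one in 4 of the 5. Dnajb2, a cytosolic co-chaperone, had a log2 ratio of Cy5 over Cy3 of 2.43 on array 3, and its nearest other value was -0.34. Dnajc13, of endosomes, had 0.67 on array 3, against -0.09. Dnajc16 had 1.84 on array 3, against 0.64. Dnajc30, of mitochondria, had -1.82 on array 3, against 0.00. Hsp90ab1, the constitutive cytosolic protein of the Hsp90 family, had -0.51 on array 1, against -0.16.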

How the results depend on the processing

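The 12 alternatives were other ways of normalising, correcting background, filtering, choosing probes or modelling variance, and leaving out each array. Of 56 members fitted under all 12, 29 kept the sign of their mean ratio throughout. The stricter filter left out 11 members, and 6 of these kept their sign under the other 11 alternatives. The remaining 32 members changed sign in at least 1. Hspb1 kept its sign in all 12 and its call in the 8 that used all 4 arrays. Median centring moved most values: 4 members were called toward Cy5 (Dnajc10, Dnajc3, Hspa14 and Hspb7), 23 were positive and 5 negative on all arrays, and 1163 genes were called toward Cy5 and 241 toward Cy3. It put the median at 0.40 over the members, 0.45 in the DnaJ family, 0.23 in the Hsp70 and Hsp110 families, 0.26 in the Hsp90 family, 0.48 for Hspd1 and Hspe1, 0.41 for the co-chaperone list (1 called toward Cy5) and 0.53 for the chaperonin list, and 2 genes of the unfolded protein response were called toward Cy5. Scale normalization called 1 member toward Cy5 (Hspb7). The software's processed log ratio called 160 genes toward Cy5 and 105 toward Cy3. With both channels above background on all arrays the median of the small family was -0.069, since 1 fewer member was tested. When an array was left out, 0 members were called toward Cy3 each time, 14 to 24 members were negative on all remaining arrays (24 without array 3), and limma called 0 to 100 genes toward Cy5 and 0 to 76 toward Cy3: without arrays 1 or 2 it called 0 genes, with 3159 and 3381 at an unadjusted p under 0.05. Apart from the construction of each alternative, the cause was not tested. The test of the ratio was itself a paired one, since each array pairs the 2 RNAs, and the arrays form 1 group. Precision is limited by the number of arrays and by signals near background in 11 members.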
